A study of Mus musculus with 32 samples.

Results

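Collagen genes of the mouse kidney were followed after cisplatin. The members were all genes whose array probe maps, through its transcript accession, to a symbol made of Col, a number, the letter a and a number, and the brightest probe stood for each gene. Of 20659 named genes on the array, 43 were such collagen genes, out of 44 in the RefSeq gene table. Col12a1 had no probe mapped to it and was not analysed here. Genes entered the tests where every array of some group, all 4 of them, had a signal well above background, which left 35 of the 43. The other 8 were Col6a4, Col6a5, Col9a3, Col10a1, Col11a1, Col22a1, Col25a1 and Col28a1.

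Whole kidneys came from male mice aged 12 to 16 weeks, either miR-155-/- (strain B6.Cg-Mir155tm1.1Rsky/J, from The Jackson Laboratory) or wild type C57BL/6 (from Charles River Laboratories), matched for age and weight. The supplier and the genotype cannot be told apart. Cisplatin, a platinum drug that injures tubule cells, was given once at 20 mg/kg, and kidneys were taken 24, 48 or 72 h later. Saline-injected mice form the 0 h group of each genotype, so that there are 8 groups, with 4 animals on an array each. No probe used here carries the name of the miR-155 gene, so the deletion was not checked.

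Values are levels on a log2 scale, each array's 75th percentile set at 0, so a level of -1 is 2-fold below that percentile. Levels of different genes come from different probes and are not compared with each other. That percentile lay between 1531.5 and 2646.8 intensity units, and 67.9% to 81.8% of the probes were well above background. The number of arrays, 4 per group, limits the precision. All 6 kidney tubule markers were well above background on all 32 arrays. Replicate 3 of the miR-155-/- 48 h group stood apart over all genes, at 121 and 61.4 on the first and second components of variation, where its 3 group mates lay between 18.2 and 30.3 on the first and between -21.6 and -14.4 on the second. Replicate 3 of the miR-155-/- 24 h group, had 87.8 and 59.6, with its mates between 18.4 and 70.6 on the first and between 28.0 and 40.8 on the second.

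Collagens are secreted proteins whose chains wind in threes into a triple helix. The chains of types I, II, III, V, XI, XXIV and XXVII form fibrils, the cables of the interstitium, and in kidney types I and III are made chiefly by fibroblasts and pericytes. Type IV chains form the sheet-like network of basement membranes under tubules, vessels and the glomerular tuft, where the Col4a3, Col4a4 and Col4a5 chains replace the Col4a1 and Col4a2 chains of the immature membrane. The remaining collagens decorate fibrils, form beaded filaments or short networks, or sit in the cell membrane.

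Nearly all collagen chains called at 24 h after cisplatin were lower than after saline, and at 72 h the called chains went both ways. Of the 35 tested, 1 was higher and 19 lower at 24 h in miR-155-/- kidney (adjusted p under 0.05, limma), where 26.6% of all genes were called higher and 22.5% lower. In wild type kidney at 24 h 1 was higher and 18 lower, against 21% and 17.6% of all genes. At 48 h 5 collagens were higher and 11 lower in miR-155-/- kidney, against 22.7% and 21.1% of all genes, and 4 were higher and 5 lower in wild type kidney, against 12.2% and 11.6%. At 72 h 7 were higher and 9 lower in miR-155-/- kidney, against 17.7% and 17.5%, and 4 were higher and 15 lower in wild type kidney, against 12.5% and 12.8%. The median collagen difference from saline was -0.97 at 24 h, -0.21 at 48 h and -0.13 at 72 h in miR-155-/- kidney, where the median of all genes was -0.0100, -0.053 and -0.017. In wild type kidney it was -0.83, -0.39 and -0.56, with all genes at 0.074, 0.00052 and 0.030. Only members that passed the filter on dim probes enter these counts. Col6a6, Col8a2 and Col19a1 passed it only through saline groups and Col2a1, Col13a1 and Col17a1 only through treated groups, so that these 6 were admitted by the groups where they are high, and their calls are no support. Among the other 29, 0 were higher and 17 lower at 24 h, 2 and 8 at 48 h and 4 and 6 at 72 h in miR-155-/- kidney, and 0 and 16, 3 and 3, and 3 and 12 in wild type kidney. With the slide as a block 17 collagens passed at 48 h in wild type kidney. Normexp background correction left 12, 5 and 7 calls at 24, 48 and 72 h in miR-155-/- kidney and 11, 3 and 10 in wild type kidney. On the slides that held treated and saline arrays of 1 genotype, all called collagens kept their sign except 1 of 16 at 48 h in miR-155-/- kidney. No slide held wild type arrays of both saline and 72 h.

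Col4a4, Col5a2, Col6a6 and Col23a1 were lower in all 6 comparisons with saline. A further 17 were called only lower, 4 only higher (Col2a1, Col8a1, Col13a1 and Col17a1), and 4 each way at different times or genotypes (Col4a1, Col7a1, Col18a1 and Col27a1). Of those called only lower, Col6a6, Col8a2 and Col19a1 were admitted through saline groups alone. Of those called only higher, Col2a1, Col13a1 and Col17a1 were admitted through treated groups alone. The direction of these 6 is no support for the tally. Col4a6, Col9a1, Col9a2, Col11a2, Col20a1 and Col26a1 were called in none of the 6. With the slide as a block Col4a6 was called lower at 24 and 48 h in wild type kidney and Col26a1 lower at 48 h in miR-155-/- kidney, and with array weights Col9a1, Col20a1 and Col26a1 were called in wild type comparisons. Both genotypes are set against their own saline group, so all 3 times of a genotype share those 4 saline arrays. In whole tissue, fewer cells of a type and less RNA per cell cannot be told apart.

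**Figure D1:**
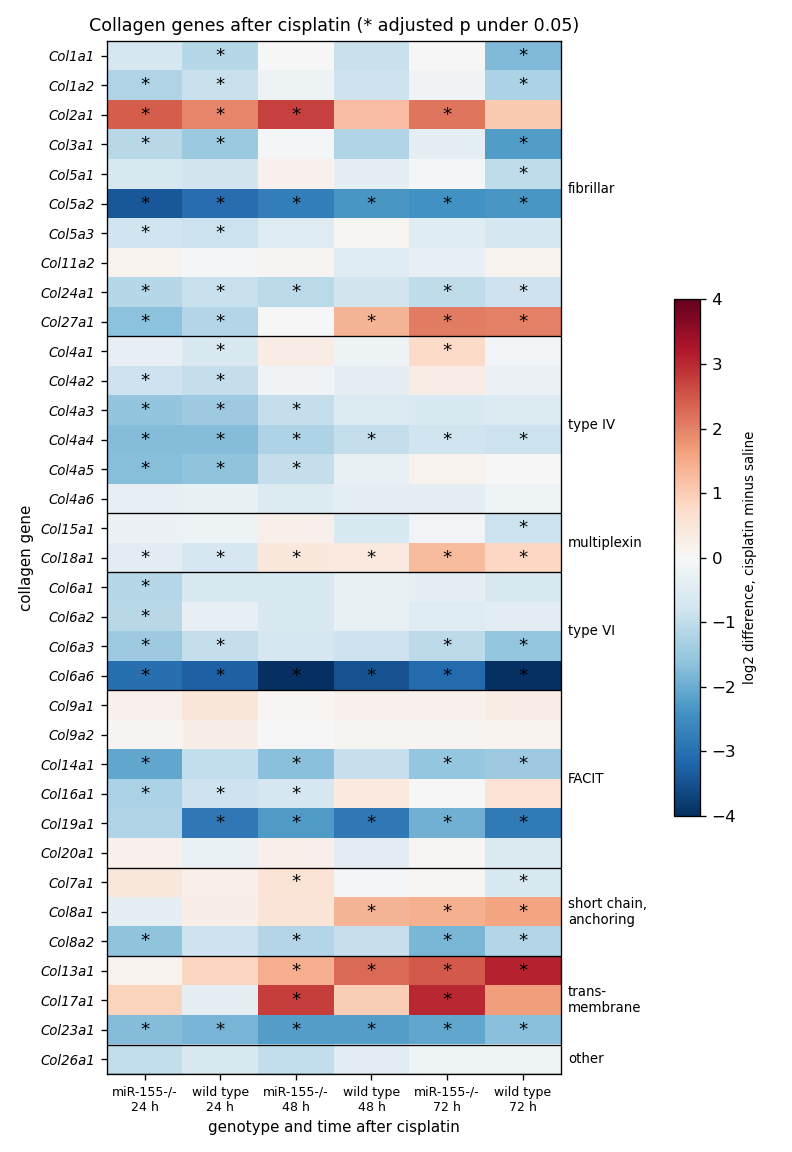
Log2 difference from saline of the 35 tested collagen genes (rows, by class) in miR-155-/- and wild type kidney at 24, 48 and 72 h (columns), with an asterisk at an adjusted p under 0.05. Blue marks lower and red higher than saline. Most type IV chains were blue at 24 h and pale by 72 h, and Col5a2 and Col6a6 were blue throughout.

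The chains of types I and III, the bulk of interstitial fibrils, fell in wild type kidney at 24 and 72 h, with the lowest wild type means at 72 h. Col1a1 measured -0.43, -0.10, -0.07 and -0.0022 after saline, -0.37, -1.15, -0.41 and -1.38 at 24 h, -0.20, -0.097, -0.065 and -0.15 at 48 h and 0.025, -0.085, 0.91 and -1.37 at 72 h in miR-155-/- kidney. Wild type Col1a1 levels were 0.42, 1.21, 0.16 and 0.18 after saline, -0.9999, -0.46, -1.07 and -0.05 at 24 h, 1.31, -0.16, -1.78 and -0.91 at 48 h and -0.81, -1.36, -1.28 and -1.67 at 72 h. All 4 wild type arrays at 72 h lay below all 4 saline arrays, while the miR-155-/- arrays at 72 h spread on both sides of theirs. Col1a1, the alpha-1 chain of type I, differed from saline at 72 h by 0.023 ± 0.44 (adjusted p = 0.976) in miR-155-/- kidney and by -1.77 ± 0.44 (adjusted p = 0.00318) in wild type kidney, where it was 3.41-fold lower. At 24 h the difference was -0.68 ± 0.44 (adjusted p = 0.212) in miR-155-/- kidney and -1.14 ± 0.44 (adjusted p = 0.0406) in wild type kidney.

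Col3a1 measured -0.70, -0.18, -0.22 and -0.57 after saline, -1.10, -1.68, -0.85 and -2.49 at 24 h, -0.83, -0.55, -0.13 and -0.52 at 48 h and -0.63, -0.94, 0.31 and -2.004 at 72 h in miR-155-/- kidney. Wild type Col3a1 levels were 0.31, 0.55, -0.41 and -0.27 after saline, -1.90, -1.31, -1.83 and -0.69 at 24 h, 0.47, -1.13, -2.48 and -1.50 at 48 h and -1.90, -2.22, -2.29 and -2.35 at 72 h. Col3a1 is the single chain of type III. The highest wild type value at 72 h was below the lowest saline value, and miR-155-/- replicate 4 was far below its 3 mates at 72 h. It differed from saline by -1.11 ± 0.45 (adjusted p = 0.0407) at 24 h, -0.091 ± 0.45 (adjusted p = 0.885) at 48 h and -0.40 ± 0.45 (adjusted p = 0.535) at 72 h in miR-155-/- kidney. The 24 h call was lost without saline replicates 2, 3 or 4 or 24 h replicates 2 or 4, with adjusted p up to 0.176. The wild type differences were -1.47 ± 0.45 (adjusted p = 0.0103) at 24 h, -1.21 ± 0.45 (adjusted p = 0.0503) at 48 h and -2.23 ± 0.45 (adjusted p = 0.000399) at 72 h, the last a 4.7-fold fall. Col1a2, the alpha-2 chain of type I, ran the same way, with 0.95 to 2.21 in miR-155-/- and 0.50 to 0.75 in wild type kidney at 72 h, against 0.79 to 2.10 and 1.54 to 2.08 after saline. Its 72 h difference was -0.13 ± 0.32 (adjusted p = 0.803) in miR-155-/- and -1.28 ± 0.32 (adjusted p = 0.00396) in wild type kidney, and its 24 h difference -1.19 ± 0.32 (adjusted p = 0.00339) and -0.89 ± 0.32 (adjusted p = 0.0303).

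None of the 3 genes was called at 48 h in wild type kidney, and this depended on the fit. Replicate 1 had the highest wild type 48 h level of Col1a1, Col1a2 and Col3a1, and also of Col5a1, Col6a3 and Col14a1. Without it the 48 h wild type difference was -1.45 ± 0.39 (adjusted p = 0.00816) for Col1a1, -1.14 ± 0.32 (adjusted p = 0.011) for Col1a2 and -1.75 ± 0.41 (adjusted p = 0.00274) for Col3a1, so that all 3 passed the test. With all arrays and the slide as a block all 3 passed as well, at -1.24 ± 0.43 (adjusted p = 0.0304), -1.03 ± 0.34 (adjusted p = 0.0254) and -1.56 ± 0.47 (adjusted p = 0.0151). The 24 h falls of Col1a1 and Col1a2 in wild type kidney lost their call when single arrays were left out, with adjusted p up to 0.131 and 0.0931. For both genes this held without wild type saline replicates 1 or 2 or 24 h replicates 1, 2 or 3, and for Col1a2 also without saline replicate 3.

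Col1a2 and Col3a1 were called lower in the same 3 comparisons with saline, and their upstream sequences are shown to compare the core promoter letters they hold. The 250 bases before the RefSeq transcription start (GRCm38.p6, plus strand, 5′ to 3′) are shown for both, chr6:4505368-4505617 and chr1:45311288-45311537, with the GC box GGGCGG, the CCAAT box CCAAT and the TATA box TATAAA in capitals, searched on both strands. No match overlapped another.
Col1a2: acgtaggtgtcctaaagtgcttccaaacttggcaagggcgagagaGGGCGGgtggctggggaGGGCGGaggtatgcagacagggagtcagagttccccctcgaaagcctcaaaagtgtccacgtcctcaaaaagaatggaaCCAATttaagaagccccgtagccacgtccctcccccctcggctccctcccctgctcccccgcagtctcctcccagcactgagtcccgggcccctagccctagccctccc
Col3a1: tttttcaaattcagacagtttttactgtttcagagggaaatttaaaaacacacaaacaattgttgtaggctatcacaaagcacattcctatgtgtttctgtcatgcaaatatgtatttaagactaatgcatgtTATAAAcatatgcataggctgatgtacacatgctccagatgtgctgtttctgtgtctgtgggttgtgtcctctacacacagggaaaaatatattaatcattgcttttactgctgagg
The Col1a2 stretch holds 2 GC boxes and 1 CCAAT box and the Col3a1 stretch 1 TATA box. Of 27025 mouse promoter windows of 300 bases, 35.9% hold the GC box, 37.9% the CCAAT box and 14.2% the TATA box. These windows add 50 transcribed bases to the 250 before the start, and over the longer window Col1a2 holds 2 CCAAT boxes. These matches are letters, not sites shown to be bound.

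Col5a2, a chain of type V that is built into type I fibrils, had the deepest fall of the fibrillar chains in both genotypes. Col5a2 measured -2.43, -3.34, -2.70 and -2.64 after saline, -5.12, -5.96, -6.37 and -7.22 at 24 h, -5.19, -4.95, -6.60 and -5.48 at 48 h and -5.39, -5.16, -4.86 and -5.42 at 72 h in miR-155-/- kidney. Wild type Col5a2 levels were -2.68, -2.40, -2.58 and -2.98 after saline, -5.44, -6.39, -5.44 and -5.62 at 24 h, -4.87, -5.06, -4.99 and -5.02 at 48 h and -4.61, -5.43, -4.83 and -5.14 at 72 h. No treated array overlapped the saline arrays of its genotype at any time. The difference from saline was -3.39 ± 0.33 (adjusted p = 7.51e-09) at 24 h, -2.78 ± 0.33 (adjusted p = 2.34e-07) at 48 h and -2.43 ± 0.33 (adjusted p = 1.76e-06) at 72 h in miR-155-/- kidney, or 10.5-, 6.86- and 5.37-fold lower. In wild type kidney it was -3.06 ± 0.33 (adjusted p = 3.99e-08), -2.32 ± 0.33 (adjusted p = 6.38e-06) and -2.34 ± 0.33 (adjusted p = 4.8e-06). With normexp background correction the differences kept their sign but shrank to between -1.84 and -0.85, and only the miR-155-/- 24 h call remained (adjusted p = 0.0113).

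The other type V chains moved less. Col5a1 ranged over -3.18 to -1.89 in miR-155-/- and -3.90 to -3.02 in wild type kidney at 72 h, against -3.24 to -2.38 and -2.64 to -2.04 after saline. It was called once, at 72 h in wild type kidney, with -1.03 ± 0.31 (adjusted p = 0.0159), against -0.049 ± 0.31 (adjusted p = 0.927) in miR-155-/- kidney. Col5a3 ranged over -4.48 to -3.09 in miR-155-/- and -4.41 to -3.79 in wild type kidney at 24 h, against -3.23 to -2.93 and -3.69 to -2.91 after saline. It was called at 24 h with -0.80 ± 0.28 (adjusted p = 0.0194) and -0.85 ± 0.28 (adjusted p = 0.0172). With the slide as a block it was also called at 72 h in wild type kidney, with -0.89 ± 0.33 (adjusted p = 0.0492).

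Col27a1, a minor fibrillar collagen of cartilage, first fell and then rose above saline. Col27a1 measured -1.36, -0.49, -0.96 and -0.33 after saline, -2.98, -2.22, -2.58 and -1.88 at 24 h, 0.42, -0.43, -3.25 and 0.16 at 48 h and 0.80, 1.38, 1.40 and 1.49 at 72 h in miR-155-/- kidney. Wild type Col27a1 levels were -1.17, -1.25, -0.96 and -0.66 after saline, -2.36, -2.10, -1.97 and -2.35 at 24 h, 0.39, 0.59, 0.49 and -0.051 at 48 h and 0.68, 0.81, 1.22 and 1.32 at 72 h. The treated arrays at 24 h lay below and those at 72 h above all saline arrays of their genotype. Replicate 3 of the miR-155-/- 48 h group had -3.25, among the 24 h values, while its 3 mates lay between -0.43 and 0.42. The rise over saline at 72 h was 2.05 ± 0.45 (adjusted p = 0.000653) in miR-155-/- and 2.02 ± 0.45 (adjusted p = 0.0012) in wild type kidney. Between 24 and 72 h the level rose by 3.68 ± 0.45 (adjusted p = 9.07e-07) in miR-155-/- kidney, 12.8-fold, and by 3.20 ± 0.45 (adjusted p = 4e-06) in wild type kidney, 9.21-fold. At 48 h the miR-155-/- difference from saline was 0.01 ± 0.45 (adjusted p = 0.988), and 0.84 ± 0.26 (adjusted p = 0.0123) without replicate 3. With the slide as a block the wild type calls at 24 and 48 h were lost (adjusted p = 0.0631 and 0.0555).

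The remaining fibrillar chains are dim in kidney. Col2a1, the cartilage collagen, was not well above background on any saline array, so its rise is a bound, and it entered the tests through treated groups alone. It was at least 2.94-fold higher at 24 h, 3.63-fold at 48 h and 2.38-fold at 72 h in miR-155-/- kidney (adjusted p = 0.000577, 0.000222 and 0.00292). Wild type Col2a1 was at least 1.93-fold higher at 24 h (adjusted p = 0.00523) and was not called later. Measured Col2a1 levels at 24 h were -6.47 to -5.71 in miR-155-/- and -7.49 to -6.06 in wild type kidney, against -8.99 to -7.98 and -9.41 to -7.87 after saline. For the bound, each dim array counts at the lowest level any probe well above background had on it, or at the probe's own level where that was higher. Col24a1 differed by -1.15 ± 0.29 at 24 h in miR-155-/- kidney (adjusted p = 0.00179) and was called in 5 of the 6 comparisons, with wild type at 48 h missing the threshold (adjusted p = 0.0694). Its levels at 24 h ranged over -8.09 to -6.85 in miR-155-/- kidney, against -6.46 to -5.86 after saline. All Col2a1 and Col24a1 calls were lost with normexp background correction. Col11a2 was called in no comparison, and Col11a1 was not tested.

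**Figure D2:**
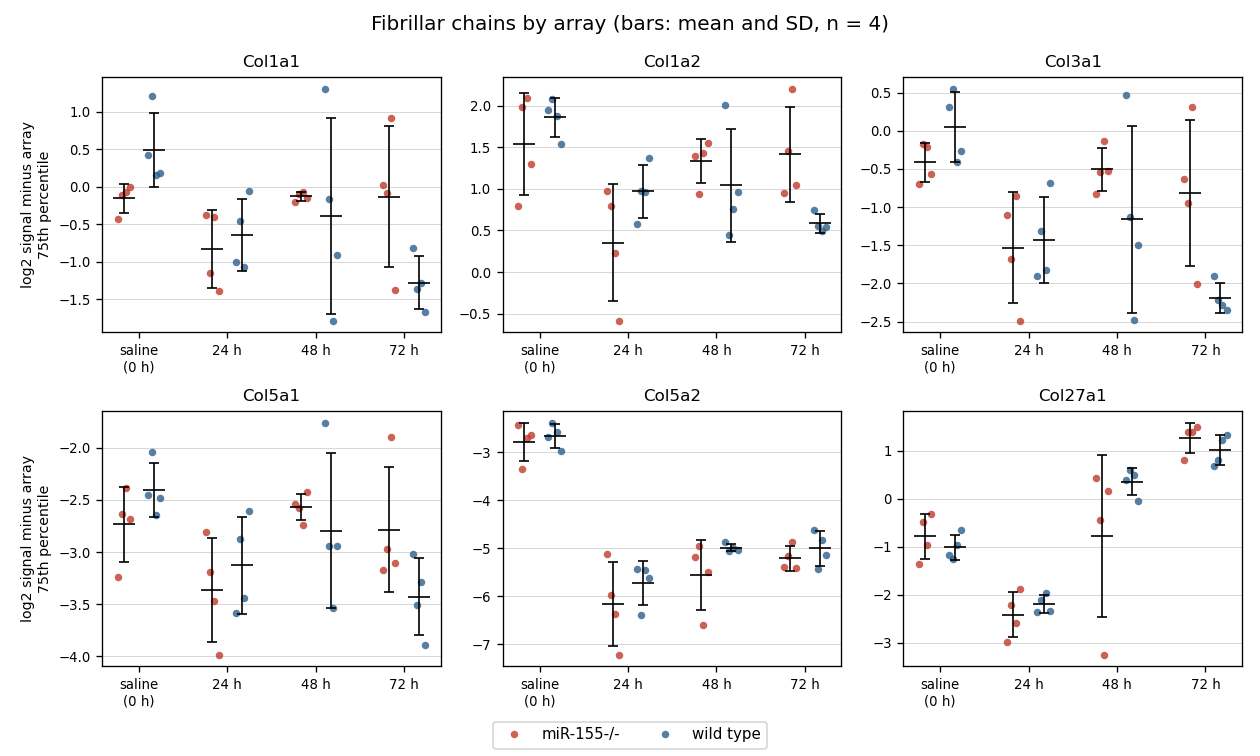
Levels of 6 fibrillar chains on each of the 32 arrays by time after cisplatin, miR-155-/- (red) left of wild type (blue), with the mean and SD of the 4 animals. The 4 wild type Col3a1 values at 72 h lie between -2.35 and -1.90, below all wild type saline values, and Col27a1 falls at 24 h and lies above saline at 72 h in both genotypes.

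Most type IV chains of basement membranes were lowest at 24 h. Of 6 tested, 4 were lower in miR-155-/- and 5 in wild type kidney at 24 h, and by 72 h 1 was lower in each genotype and 1 higher in miR-155-/- kidney. Of all genes 22.5% and 17.6% were lower at 24 h, and 17.5% and 12.8% at 72 h. In miR-155-/- kidney 17.7% were higher at 72 h. The 72 h counts are near these shares and are no result on the class. Against 24 h, 5 were higher at 72 h in miR-155-/- and 4 in wild type kidney. Among all 35 collagens 14 were higher and 0 lower at 72 h than at 24 h in miR-155-/- kidney, against 13.6% and 18.3% of all genes. In wild type kidney 10 were higher and 1, Col7a1, lower (-0.83 ± 0.21 (adjusted p = 0.0034)), against 11.9% and 14.7%.

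Col4a4 measured 1.83, 1.72, 1.47 and 1.32 after saline, 0.013, 0.35, -0.64 and -0.34 at 24 h, 0.74, 0.94, -0.99 and 0.77 at 48 h and 0.89, 0.86, 0.31 and 1.16 at 72 h in miR-155-/- kidney. Wild type Col4a4 levels were 1.96, 1.65, 2.08 and 1.84 after saline, 0.55, -0.11, 0.42 and -0.25 at 24 h, 0.74, 0.53, 1.37 and 1.04 at 48 h and 1.15, 1.32, 0.91 and 0.69 at 72 h. Col4a4 belongs to the trimer of the mature glomerular membrane whose loss causes Alport disease. All treated arrays lay below all saline arrays of their genotype at every time. The difference from saline was -1.74 ± 0.30 (adjusted p = 2.81e-05) at 24 h, -1.22 ± 0.30 (adjusted p = 0.00161) at 48 h and -0.78 ± 0.30 (adjusted p = 0.0406) at 72 h in miR-155-/- kidney, and -1.73 ± 0.30 (adjusted p = 3.9e-05), -0.96 ± 0.30 (adjusted p = 0.0179) and -0.87 ± 0.30 (adjusted p = 0.0319) in wild type kidney. The 72 h calls rest on few arrays. In miR-155-/- kidney the call was lost without any 1 of saline replicates 1, 2 or 3 or 72 h replicates 1, 2 or 3 (adjusted p up to 0.146), and with the mean of all probes (adjusted p = 0.0651). In wild type kidney it was lost at 72 h without saline replicates 1, 3 or 4 or 72 h replicates 3 or 4 (adjusted p up to 0.101), and at 48 h without saline replicate 3 or 48 h replicates 1 or 2 (adjusted p up to 0.0729). The sign was the same throughout. Its other 2 probes gave -1.97 and -1.46 at 24 h in miR-155-/- and -1.84 and -1.40 in wild type kidney.

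Col4a5 measured -0.004, -0.083, 0.17 and -0.21 after saline, -1.33, -1.28, -2.35 and -1.98 at 24 h, -0.46, -0.21, -2.99 and -0.21 at 48 h and 0.036, 0.15, 0.057 and 0.26 at 72 h in miR-155-/- kidney. Wild type Col4a5 levels were 0.33, -0.071, 0.077 and -0.002 after saline, -1.53, -1.90, -1.30 and -1.43 at 24 h, -0.073, -0.41, -0.20 and -0.11 at 48 h and 0.088, 0.041, 0.15 and -0.04 at 72 h. Col4a5, the X-linked chain of the same trimer, was low on all 8 arrays at 24 h and within or just above the saline range at 72 h. It differed by -1.71 ± 0.35 (adjusted p = 0.000268) in miR-155-/- and -1.62 ± 0.35 (adjusted p = 0.000602) in wild type kidney at 24 h, 3.26- and 3.08-fold lower, and by 0.16 ± 0.35 (adjusted p = 0.78) and -0.024 ± 0.35 (adjusted p = 0.972) at 72 h. The rise between 24 and 72 h was 1.86 ± 0.35 (adjusted p = 0.000218) and 1.60 ± 0.35 (adjusted p = 0.00108). Col4a3, the third chain, ranged over -1.86 to -0.66 in miR-155-/- and -1.12 to -0.28 in wild type kidney at 24 h, against 0.15 to 0.53 and 0.56 to 0.84 after saline. Its difference was -1.59 ± 0.33 (adjusted p = 0.000265) and -1.44 ± 0.33 (adjusted p = 0.001) at 24 h, and -0.61 ± 0.33 (adjusted p = 0.156) and -0.53 ± 0.33 (adjusted p = 0.258) at 72 h. All 8 treated arrays at 72 h still lay below the saline arrays of their genotype.

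At 48 h replicate 3 of the miR-155-/- group held the lowest 48 h value of all 3 chains, -2.31 for Col4a3, -0.99 for Col4a4 and -2.99 for Col4a5. The miR-155-/- difference at 48 h was -0.97 ± 0.33 (adjusted p = 0.019) for Col4a3 and -0.94 ± 0.35 (adjusted p = 0.0328) for Col4a5 with it, and -0.40 ± 0.21 (adjusted p = 0.163) and -0.27 ± 0.18 (adjusted p = 0.278) without it, while Col4a4 stayed called at -0.77 ± 0.23 (adjusted p = 0.0104). With the slide as a block the rise of Col4a3 between 24 and 72 h was no longer called in either genotype (adjusted p = 0.0513 and 0.0564).

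Col4a1 and Col4a2, which encode the chains of the ubiquitous type IV trimer, are transcribed away from each other. Their RefSeq starts lie 21 bases apart and the first 22 bases of both transcripts overlap, at chr8:11312805-11312826 (GRCm38.p6, plus strand, 5′ to 3′), with a GC box in capitals.
Col4a1 and Col4a2 overlap: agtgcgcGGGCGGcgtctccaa
Col4a1 measured 0.27, 0.68, 0.69 and 0.85 after saline, 0.066, 0.077, 0.75 and 0.23 at 24 h, 0.94, 0.64, 1.25 and 0.90 at 48 h and 1.21, 1.42, 2.07 and 0.82 at 72 h in miR-155-/- kidney. Wild type Col4a1 levels were 0.53, 1.21, 0.92 and 0.77 after saline, 0.27, 0.30, 0.097 and 0.33 at 24 h, 0.96, 0.86, 0.34 and 0.51 at 48 h and 0.54, 0.81, 0.59 and 1.08 at 72 h. At 72 h 3 of the 4 miR-155-/- arrays lay above every saline array of their genotype, and the wild type arrays lay among theirs.

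Col4a1 differed from saline by 0.76 ± 0.21 (adjusted p = 0.00492) at 72 h in miR-155-/- kidney and by -0.10 ± 0.21 (adjusted p = 0.759) in wild type kidney. At 24 h it differed by -0.34 ± 0.21 (adjusted p = 0.178) and -0.61 ± 0.21 (adjusted p = 0.0206). Col4a2 measured 1.02, 1.35, 1.31 and 1.43 after saline, 0.47, 0.37, 0.61 and 0.34 at 24 h, 1.25, 1.13, 1.004 and 1.14 at 48 h and 1.29, 1.63, 2.22 and 1.16 at 72 h in miR-155-/- kidney. Wild type Col4a2 levels were 1.18, 1.75, 1.59 and 1.18 after saline, 0.24, 0.53, 0.50 and 0.68 at 24 h, 1.25, 0.998, 0.91 and 1.14 at 48 h and 1.13, 1.23, 1.04 and 1.41 at 72 h. The 24 h arrays lay below saline, and the 72 h arrays above those of 24 h, in both genotypes for Col4a2. Its difference was -0.83 ± 0.16 (adjusted p = 0.00015) in miR-155-/- and -0.94 ± 0.16 (adjusted p = 4.57e-05) in wild type kidney at 24 h, and 0.29 ± 0.16 (adjusted p = 0.17) and -0.22 ± 0.16 (adjusted p = 0.356) at 72 h. The rise between 24 and 72 h was 1.10 ± 0.21 (adjusted p = 0.000192) for Col4a1 and 1.12 ± 0.16 (adjusted p = 8.76e-06) for Col4a2 in miR-155-/- kidney, and 0.50 ± 0.21 (adjusted p = 0.0724) and 0.72 ± 0.16 (adjusted p = 0.00141) in wild type kidney.

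Col4a6, a chain of the Bowman capsule and smooth muscle membranes whose gene lies head to head with Col4a5, was called in no comparison with saline, except with the slide as a block. Its brightest probe gave -0.33 in miR-155-/- and -0.29 in wild type kidney at 24 h, but its second probe gave -2.30 and -1.83, so the probes disagree on its size. The RefSeq starts of Col4a5 and Col4a6 are 1343 bases apart.

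**Figure D3:**
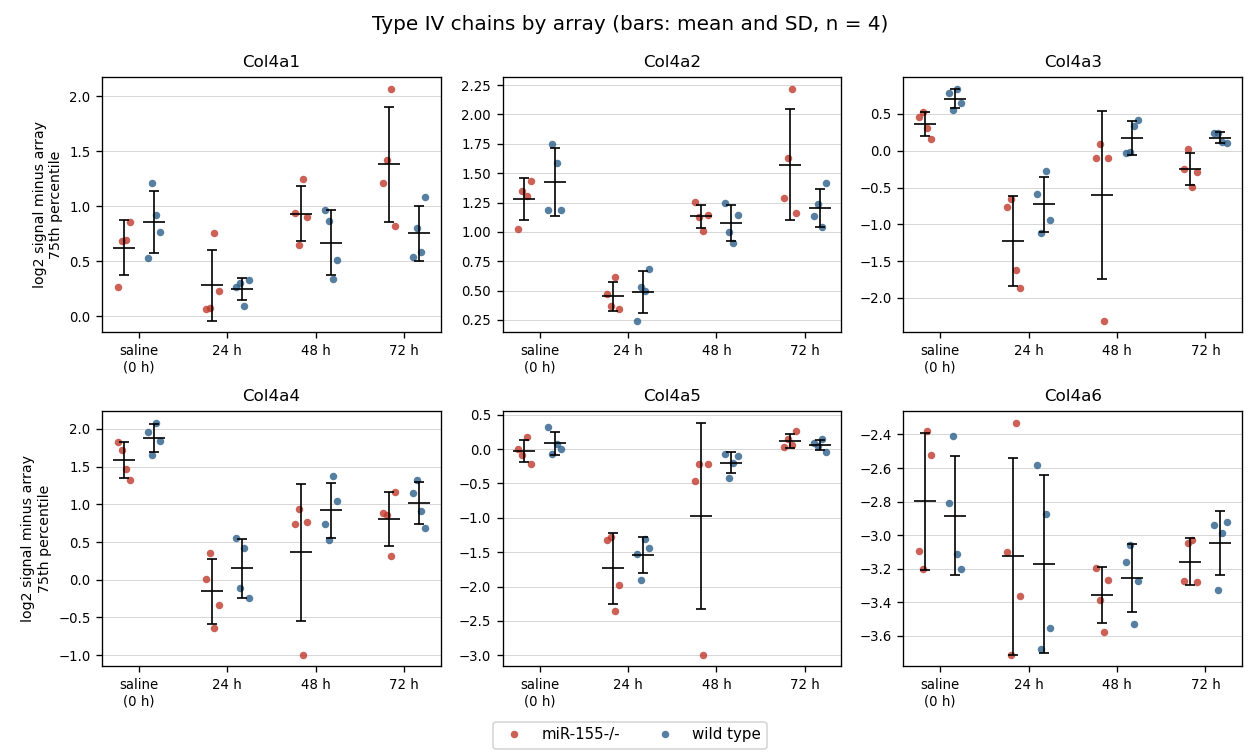
Levels of the 6 type IV chains on each array by time after cisplatin, miR-155-/- (red) left of wild type (blue), with the mean and SD of the 4 animals. Col4a2, Col4a3, Col4a4 and Col4a5 are lowest at 24 h, apart from 1 miR-155-/- array at 48 h (-2.99 for Col4a5), and Col4a1 reaches 2.07 in miR-155-/- kidney at 72 h.

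The fibrillar and basement membrane chains were then set against each other per array, as the mean difference from the saline mean of the genotype over 10 fibrillar and 6 type IV chains. This contrast was described and not tested. The fibrillar mean was -0.80 ± 0.37 at 24 h, -0.17 ± 0.25 at 48 h and -0.064 ± 0.39 at 72 h in miR-155-/- kidney, and -0.83 ± 0.21, -0.42 ± 0.50 and -0.70 ± 0.095 in wild type kidney (SD, n = 4). The type IV mean was -1.09 ± 0.18, -0.59 ± 0.57 and -0.091 ± 0.12 in miR-155-/- kidney, and -1.10 ± 0.20, -0.45 ± 0.066 and -0.32 ± 0.04 in wild type kidney. Both class means were thus lowest at 24 h, and of these 4 means only the wild type fibrillar one was still below -0.5 at 72 h. The wild type fibrillar arrays overlapped, at -1.02 to -0.56 at 24 h and -0.82 to -0.59 at 72 h, so the order of these times is not settled. Its chains went both ways between 24 and 72 h, from -1.19 to 2.02 in Col27a1 and from -1.14 to -1.77 in Col1a1.

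The gap, fibrillar minus type IV, was 0.29 ± 0.25 at 24 h, 0.42 ± 0.33 at 48 h and 0.028 ± 0.31 at 72 h in miR-155-/- kidney, and 0.27 ± 0.39, 0.031 ± 0.48 and -0.38 ± 0.10 in wild type kidney. At 72 h the 4 miR-155-/- arrays lay at 0.059, -0.15, 0.45 and -0.25 and the wild type arrays at -0.37, -0.52, -0.33 and -0.30. All miR-155-/- values lay above all wild type values, the nearest being -0.25 and -0.30. Each value is set against its own genotype's saline mean, whose error is not in these SDs. Leaving out wild type saline replicate 2 moved the wild type mean from -0.38 to -0.31, by more than the nearest values lie apart. The separation thus rests on that saline array. The saline arrays spread over -0.16 to 0.17 in miR-155-/- and -0.33 to 0.22 in wild type kidney. The fibrillar mean includes Col2a1, which was admitted through treated groups alone, so that its rise is no support. At 24 h its measured difference from saline was 2.43 in miR-155-/- and 1.97 in wild type kidney, which raises the fibrillar mean and the gap. The gap without Col2a1 was not computed, so neither the positive 24 h gaps nor the 72 h separation is a result on the classes. The gap depends on which chains stand for a class. With Col1a1, Col1a2, Col3a1, Col5a1 and Col5a2 against Col4a1 and Col4a2 it was -0.81, -0.66 and -1.12 at 24, 48 and 72 h in miR-155-/- kidney and -0.68, -0.85 and -1.57 in wild type kidney, which turns its sign in every comparison except wild type at 72 h.

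Within each class the chains split further. The mean of Col1a1, Col1a2 and Col3a1 was -0.99 ± 0.59 at 24 h, -0.092 ± 0.15 at 48 h and -0.17 ± 0.78 at 72 h in miR-155-/- kidney, and -1.17 ± 0.44, -0.97 ± 1.03 and -1.76 ± 0.22 in wild type kidney. That of Col4a1 and Col4a2 was -0.59 ± 0.21, 0.081 ± 0.11 and 0.53 ± 0.49 in miR-155-/- kidney, and -0.77 ± 0.11, -0.27 ± 0.20 and -0.16 ± 0.20 in wild type kidney. Col4a3, Col4a4 and Col4a5 together stood at -1.68 ± 0.50, -1.04 ± 1.13 and -0.41 ± 0.19 in miR-155-/- kidney, and at -1.60 ± 0.30, -0.59 ± 0.22 and -0.47 ± 0.13 in wild type kidney. Col4a3, Col4a4 and Col4a5 had the deepest 24 h trough of these 3 sets in both genotypes, and the type I and III chains the lowest wild type level at 72 h. Whole kidney RNA does not place that trough in a cell type.

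**Figure D4:**
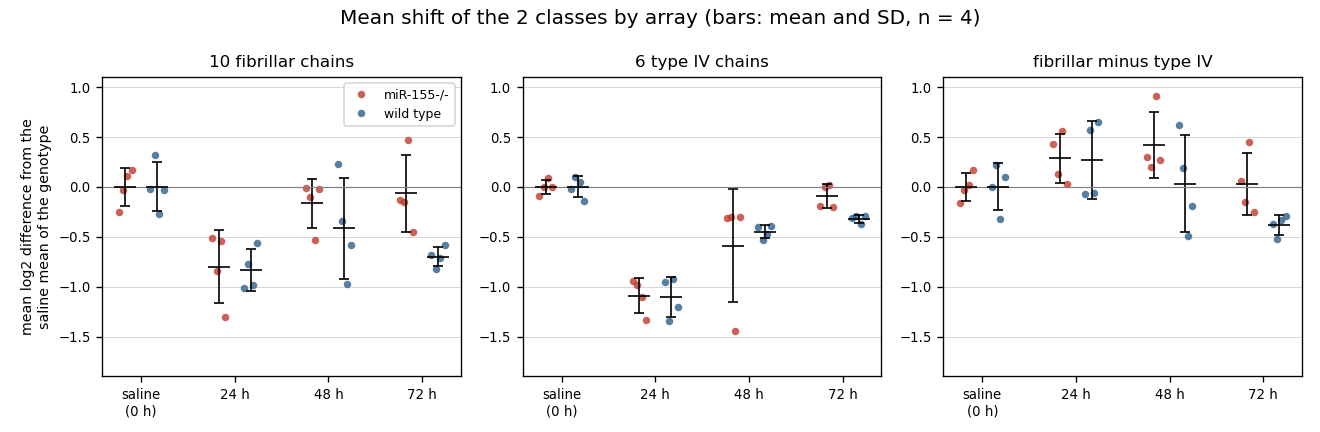
Mean log2 difference from the saline mean of the genotype over the 10 fibrillar chains, the 6 type IV chains and their gap, per array and time, miR-155-/- (red) left of wild type (blue), with the mean and SD of the 4 animals. At 72 h the fibrillar mean is -0.064 in miR-155-/- and -0.70 in wild type kidney.

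Col18a1, a basement membrane zone collagen that releases endostatin, fell and then rose. Col18a1 measured 3.23, 3.34, 3.40 and 3.22 after saline, 3.002, 2.87, 2.48 and 3.11 at 24 h, 3.88, 3.84, 3.31 and 3.81 at 48 h and 4.63, 4.61, 4.69 and 4.36 at 72 h in miR-155-/- kidney. Wild type Col18a1 levels were 3.37, 3.50, 3.57 and 3.43 after saline, 2.80, 2.70, 2.79 and 2.87 at 24 h, 4.27, 3.94, 3.48 and 3.74 at 48 h and 4.02, 4.19, 4.48 and 4.44 at 72 h. All 8 arrays at 24 h lay below and all 8 at 72 h above the saline arrays of their genotype. The difference was -0.43 ± 0.14 (adjusted p = 0.0149) in miR-155-/- and -0.68 ± 0.14 (adjusted p = 0.000478) in wild type kidney at 24 h, and 1.27 ± 0.14 (adjusted p = 7.43e-08) and 0.81 ± 0.14 (adjusted p = 8.96e-05) at 72 h. Between 24 and 72 h it rose 3.26-fold in miR-155-/- and 2.81-fold in wild type kidney (adjusted p = 3.9e-09 and 1.73e-08). The 48 h calls, 0.41 ± 0.14 and 0.39 ± 0.14, were less stable, and within 1 slide the miR-155-/- value was -0.036. Col15a1, its relative, was called once, with -0.85 ± 0.25 (adjusted p = 0.0132) at 72 h in wild type kidney, against -0.11 ± 0.25 (adjusted p = 0.791) in miR-155-/- kidney. Its dimmer probes gave -1.21 and -0.39 in wild type and -0.91 and -0.62 in miR-155-/- kidney at 72 h. The call was lost with the mean of all probes and with normexp background correction (adjusted p = 0.904).

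Of the membrane-spanning collagens tested, which link epithelial cells to matrix, Col13a1 and Col17a1 were called only higher than saline and Col23a1 only lower. Col13a1 and Col17a1 were admitted through treated groups alone, so their rises are described and are no support for a direction. Col13a1 measured -7.21, -7.46, -6.41 and -6.13 after saline, -6.99, -7.27, -6.49 and -5.89 at 24 h, -5.43, -5.83, -4.63 and -5.46 at 48 h and -5.23, -4.18, -3.60 and -4.38 at 72 h in miR-155-/- kidney. Wild type Col13a1 levels were -7.59, -6.72, -7.33 and -7.99 after saline, -7.08, -6.50, -6.28 and -6.30 at 24 h, -5.45, -5.52, -5.17 and -4.48 at 48 h and -4.41, -4.57, -4.34 and -3.97 at 72 h. The 48 h and 72 h arrays lay above all saline arrays of their genotype. The saline signal was well above background on 3 of 4 miR-155-/- arrays and 1 of 4 wild type arrays, so the measured differences include levels near background. Col13a1 rose by 1.46 ± 0.36 (adjusted p = 0.00178) at 48 h and 2.45 ± 0.36 (adjusted p = 4.5e-06) at 72 h in miR-155-/- kidney, and by 2.25 ± 0.36 (adjusted p = 2.8e-05) and 3.09 ± 0.36 (adjusted p = 2.16e-07) in wild type kidney. Col17a1, a hemidesmosome protein of epithelia, ranged over -5.70 to -4.37 in miR-155-/- and -5.72 to -4.84 in wild type kidney at 72 h, against -9.45 to -7.18 and -7.50 to -6.66 after saline. Its saline signal was above background on 2 of 4 miR-155-/- and 3 of 4 wild type arrays. It rose by 2.78 ± 0.69 (adjusted p = 0.00202) at 48 h and 3.01 ± 0.69 (adjusted p = 0.00109) at 72 h in miR-155-/- kidney, while the wild type difference at 72 h was 1.66 ± 0.69 (adjusted p = 0.0797). The highest miR-155-/- values at 24 and 48 h, -4.44 and -2.80, were both of replicate 3. Without that 48 h array its difference was 1.95 ± 0.63 (adjusted p = 0.0183).

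Col23a1 measured -3.35, -2.98, -3.64 and -3.69 after saline, -5.45, -5.60, -4.14 and -5.46 at 24 h, -5.91, -5.68, -5.25 and -5.57 at 48 h and -5.68, -5.80, -5.66 and -4.88 at 72 h in miR-155-/- kidney. Wild type Col23a1 levels were -3.07, -3.31, -3.36 and -3.20 after saline, -5.06, -5.53, -4.95 and -4.79 at 24 h, -5.77, -5.32, -5.52 and -5.11 at 48 h and -4.71, -4.84, -5.12 and -4.97 at 72 h. Col23a1 was lower than saline on every treated array. The difference was -1.75 ± 0.26 (adjusted p = 3.56e-06) at 24 h, -2.19 ± 0.26 (adjusted p = 1.47e-07) at 48 h and -2.09 ± 0.26 (adjusted p = 2.67e-07) at 72 h in miR-155-/- kidney, and -1.85 ± 0.26 (adjusted p = 1.88e-06), -2.19 ± 0.26 (adjusted p = 2.52e-07) and -1.67 ± 0.26 (adjusted p = 1.26e-05) in wild type kidney. Its 2 dimmer probes gave between -2.64 and -1.22. With normexp background correction the Col13a1 rises and Col23a1 falls kept their sign in the called comparisons and all lost their call, and so did the Col17a1 calls against saline.

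**Figure D5:**
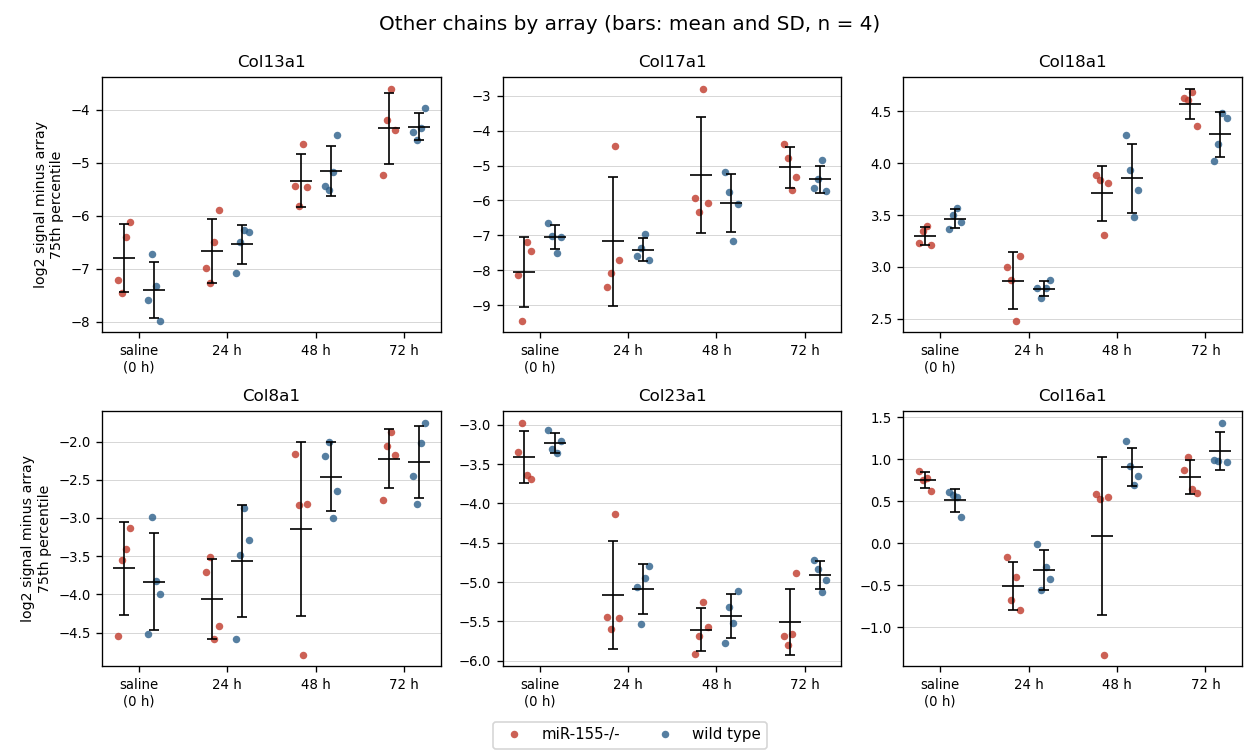
Levels of 6 collagen chains outside the fibrillar and type IV classes on each array by time after cisplatin, miR-155-/- (red) left of wild type (blue), with the mean and SD of the 4 animals. Col13a1 and Col18a1 end above saline at 72 h, Col23a1 stays below it from 24 h on, and Col16a1 dips at 24 h.

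Type VI chains, which form beaded filaments around cells, were called lower or not at all. Of the 4 tested, 4 were lower in miR-155-/- and 2 in wild type kidney at 24 h, and 2 in each at 72 h. Of all genes 22.5% and 17.6% were lower at 24 h, and 17.5% and 12.8% at 72 h, and Col6a6, 1 of the 4, was admitted through saline alone. Col6a6 measured -9.66 to -6.35 in miR-155-/- and -10.004 to -8.27 in wild type kidney at 24 h, against -6.83 to -4.45 and -6.46 to -5.09 after saline. It was not well above background on any array of 5 of the 6 treated groups, so its fall was at least 3.25-fold at 24 h and 4.75-fold at 48 h in miR-155-/- kidney, and at least 4.19-, 4.1- and 3.94-fold at 24, 48 and 72 h in wild type kidney (adjusted p = 0.000443, 1.54e-05, 0.000252, 0.000212 and 3.57e-05). In miR-155-/- kidney at 72 h 1 array was above background, and no size is given. None of these calls remained with normexp. Col6a3 differed by -1.46 ± 0.35 (adjusted p = 0.00101) and -1.06 ± 0.35 (adjusted p = 0.0177) at 24 and 72 h in miR-155-/- kidney, and by -0.94 ± 0.35 (adjusted p = 0.0318) and -1.55 ± 0.35 (adjusted p = 0.00127) in wild type kidney. Col6a1 and Col6a2 were called against saline only at 24 h in miR-155-/- kidney, with -1.13 ± 0.28 and -1.12 ± 0.30, where wild type kidney had -0.64 ± 0.28 and -0.33 ± 0.30. With the slide as a block both were also called lower at 24 and 72 h in wild type kidney, and Col6a2 in all 6 comparisons. Neither was called between genotypes at 24 h.

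Among the fibril-associated collagens, which coat fibrils, Col14a1 ranged over -1.33 to 0.045 in miR-155-/- and -1.27 to -0.48 in wild type kidney at 72 h, against 0.095 to 1.22 and 0.23 to 0.93 after saline. It differed by -1.54 ± 0.48 (adjusted p = 0.0134) and -1.46 ± 0.48 (adjusted p = 0.0255) at 72 h, and by -2.07 ± 0.48 (adjusted p = 0.000835) and -0.97 ± 0.48 (adjusted p = 0.113) at 24 h. Col16a1 fell at 24 h, with a difference of -1.27 ± 0.26 (adjusted p = 0.000232) in miR-155-/- and -0.83 ± 0.26 (adjusted p = 0.0123) in wild type kidney, and was 2.45- and 2.66-fold higher at 72 h than at 24 h (adjusted p = 0.00037 and 0.000144). Its dimmest probe gave 0.021 in wild type kidney at 24 h. Without replicate 3 the 48 h calls of Col14a1 and Col16a1 in miR-155-/- kidney were lost, at -1.11 ± 0.44 (adjusted p = 0.0565) and -0.20 ± 0.15 (adjusted p = 0.337). Col19a1 had 1 saline value of miR-155-/- replicate 3 left out for an outlier flag. Admitted through wild type saline alone, it fell at least 1.81-fold at 48 h and 1.5-fold at 72 h in miR-155-/- kidney, and at least 2.14-, 2.09- and 2.02-fold at 24, 48 and 72 h in wild type kidney, with adjusted p between 0.000512 and 0.0232. Normexp turned its sign in 3 of these 5 comparisons. The 3 others tested, Col9a1, Col9a2 and Col20a1, were not called against saline, with differences between -0.56 and 0.48.

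Of the 2 chains of type VIII, a short-chain network of vessel walls, Col8a1 was called only higher than saline and Col8a2 only lower. Col8a2 was admitted through saline groups alone, so its fall is no support for a split between the chains. Col8a1 ranged over -2.77 to -1.88 in miR-155-/- and -2.82 to -1.75 in wild type kidney at 72 h, against -4.54 to -3.14 and -4.52 to -2.99 after saline. It was 2.7- and 2.97-fold higher (adjusted p = 0.0113 and 0.00841), the wild type call being lost with the slide as a block (adjusted p = 0.0812). Col8a2, above background on all arrays of the saline groups alone, differed by -1.84 ± 0.40 (adjusted p = 0.000648) in miR-155-/- and -1.18 ± 0.40 (adjusted p = 0.0302) in wild type kidney at 72 h, while its second probe gave -0.33 and -0.14. With normexp background correction neither Col8a2 call at 72 h remained, and the miR-155-/- difference was 0.146. Col7a1, the anchoring fibril collagen, was called at 48 h in miR-155-/- kidney with 0.54 ± 0.21 (adjusted p = 0.0367) and at 72 h in wild type kidney with -0.62 ± 0.21 (adjusted p = 0.0273). Without replicate 3 the first was 0.46 ± 0.22 (adjusted p = 0.116), and with the slide as a block the second had adjusted p = 0.0656. Col26a1, of another class, was not called, and its miR-155-/- replicates 3 at 24 and 48 h lay at -4.78 and -4.99, against -2.04 to -1.27 on the other arrays of both groups.

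The falls called in 1 genotype do not show that the genotypes differ, and that difference was tested directly. Of the 35 collagens 0 were called between miR-155-/- and wild type kidney after saline, at 24, 48 or 72 h by limma, against 0.114%, 0.08%, 0.101% and 0.72% of all genes. At an unadjusted p under 0.05 the counts were 0, 2, 5 and 9. The difference between the genotypes' responses to cisplatin was called for 0 at each time, against 0% of all genes at 24 h, 0% at 48 h and 0.211% at 72 h, with 0, 4 and 9 at an unadjusted p under 0.05. The share of all genes at an unadjusted p under 0.05 is not given here. The unadjusted counts, for the genotypes and for the responses, are therefore no result on the collagens.

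These differences at 72 h were largest in Col3a1 and Col1a1. Col3a1 differed by 1.37 ± 0.45 (adjusted p = 0.17) between miR-155-/- and wild type kidney, Col1a1 by 1.15 ± 0.44 (adjusted p = 0.269), Col1a2 by 0.83 ± 0.32 (adjusted p = 0.285) and Col4a1 by 0.63 ± 0.21 (adjusted p = 0.173). The response differed by 1.83 ± 0.63 (adjusted p = 0.339) for Col3a1, 1.79 ± 0.62 (adjusted p = 0.338) for Col1a1, 1.15 ± 0.46 (adjusted p = 0.474) for Col1a2 and 0.86 ± 0.29 (adjusted p = 0.314) for Col4a1. On each of the 3 slides that held a 72 h array of both genotypes, the miR-155-/- array was higher by 0.95 to 2.66 for Col3a1, 0.73 to 2.58 for Col1a1, 0.46 to 1.67 for Col1a2 and 0.63 to 0.99 for Col4a1. These 4 genes are named for their 72 h differences and the slides hold the same arrays, so this is no separate test, and miR-155-/- replicate 4 had no wild type array on its slide. The 4 are not the only such collagens. Col2a1 (1.13) and Col6a6 (1.05) differed more between genotypes at 72 h than Col1a2 and Col4a1. Col2a1, Col7a1 and Col23a1 were among further collagens that kept 1 sign on these slides, Col23a1 being lower in miR-155-/- kidney. The 72 h miR-155-/- arrays differed among themselves, with replicate 3 at 0.91 and replicate 4 at -1.37 for Col1a1. Without replicate 4, Col3a1 and Col4a1 were called between genotypes at 72 h, with 1.77 ± 0.45 (adjusted p = 0.0414) and 0.82 ± 0.21 (adjusted p = 0.0402). With arrays weighted by their quality 8 collagens were called between genotypes at 72 h and 6 for the response, Col1a1 at 1.69 ± 0.47 (adjusted p = 0.0356) and Col3a1 at 1.68 ± 0.48 (adjusted p = 0.0379) among those 6.

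P4ha1 and Crtap, of the machinery that modifies collagen chains, were lower in all 6 comparisons. The counts of each list stand against 26.6% of all genes called higher and 22.5% lower at 24 h in miR-155-/- kidney, 21% and 17.6% at 24 h in wild type kidney, 17.7% and 17.5% at 72 h in miR-155-/- kidney and 12.5% and 12.8% at 72 h in wild type kidney, and a share near these is no result on a list. Of 19 genes for chain modification, folding and secretion, 2 were higher and 7 lower at 24 h in miR-155-/- kidney, 1 and 6 in wild type kidney, 3 and 2 at 72 h in miR-155-/- kidney and 2 and 5 in wild type kidney. P4ha1, the catalytic subunit of a prolyl 4-hydroxylase that stabilises the triple helix, differed by -1.97 ± 0.17 (adjusted p = 4e-10) in miR-155-/- and -1.88 ± 0.17 (adjusted p = 1.66e-09) in wild type kidney at 72 h. Crtap, of the prolyl 3-hydroxylase complex, had -0.35 ± 0.12 and -0.51 ± 0.12 at 72 h. P4hb, the beta subunit of prolyl 4-hydroxylase, differed at 24 h by -0.64 ± 0.13 and -0.52 ± 0.13. Colgalt1, which adds galactose to hydroxylysine, was higher in 5 of the 6, with 0.69 ± 0.12 and 0.34 ± 0.12 at 72 h.

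Set against the same shares, of 12 tested genes for propeptide cleavage and cross-linking, 0 were higher and 6 lower at 24 h in miR-155-/- and 0 and 5 in wild type kidney, and 1 was higher and 0 lower at 72 h in miR-155-/- and 0 and 3 in wild type kidney. Pxdn, the peroxidase that cross-links type IV collagen, was lower at 24 h, with -1.35 ± 0.18 (adjusted p = 1.38e-06) and -1.26 ± 0.18 (adjusted p = 4e-06) and differed at 72 h by -0.019 ± 0.18 and -0.40 ± 0.18. Loxl4, a lysyl oxidase, was the 1 gene of these lists called between genotypes. It rose by 1.47 ± 0.32 (adjusted p = 0.000585) at 72 h in miR-155-/- kidney and was lower in wild type kidney, with -1.22 ± 0.32 (adjusted p = 0.00493). The genotypes differed by 1.62 ± 0.32 (adjusted p = 0.0105) at 72 h and in their response by 2.69 ± 0.45 (adjusted p = 0.0053). The response also takes in the difference between the saline groups, which is not given here. Of all genes 0.72% were called between genotypes at 72 h and 0.211% for the response, so 1 listed gene is no result on the lists. Loxl4 was not refitted under the alternative settings.

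The discoidin receptors for collagen moved in opposite directions. Of 7 tested, 2 were higher and 4 lower at 24 h in miR-155-/- and 2 and 2 in wild type kidney. Ddr1, the epithelial discoidin receptor, was higher at 72 h by 0.67 ± 0.21 (adjusted p = 0.0149) in miR-155-/- and 0.91 ± 0.21 (adjusted p = 0.00189) in wild type kidney. Ddr2, the fibroblast discoidin receptor for fibrillar collagens, was lower in all 6 comparisons, with -0.99 ± 0.37 (adjusted p = 0.0374) and -1.84 ± 0.37 (adjusted p = 0.000406) at 72 h. Itgb1, the beta chain of the collagen-binding integrins, was higher at 24 h by 0.83 ± 0.20 (adjusted p = 0.00101) and 0.68 ± 0.20 (adjusted p = 0.00691). Among 15 other basement membrane genes, again beside 17.7% and 17.5% of all genes in miR-155-/- and 12.5% and 12.8% in wild type kidney, 5 were higher and 4 lower at 72 h in miR-155-/- and 3 and 3 in wild type kidney. Lama5, the laminin chain of the mature glomerular and tubular membrane, was higher in all 6 comparisons, by 1.16 ± 0.11 (adjusted p = 5.69e-09) and 0.71 ± 0.11 (adjusted p = 2.14e-05) at 72 h. Of 5 tested small proteoglycans that bind fibrils 3 were lower at 72 h in miR-155-/- and 2 in wild type kidney, and none higher, with Fmod (fibromodulin) at -1.76 ± 0.32 (adjusted p = 6.97e-05) and -1.01 ± 0.32 (adjusted p = 0.0192).

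Cell type markers were set beside these results, and their part in them was not tested. Of all genes 22.5% were lower at 24 h and 17.5% at 72 h in miR-155-/- kidney. In wild type kidney 17.6% and 12.8% were lower. A marker count near these shares is no result on a list. Of 6 fibroblast and pericyte markers, which label the cells that make types I and III, 1 was lower in miR-155-/- and 4 in wild type kidney at 72 h, and 5 and 1 at 24 h, with none higher. Their summed linear signal, in units of the array's 75th percentile, was 1.28 to 3.88 in miR-155-/- and 1.14 to 1.68 in wild type kidney at 72 h, against 2.21 to 3.5 and 1.91 to 3.03 after saline. Of 5 smooth muscle and myofibroblast markers 0 were lower in miR-155-/- and 4 in wild type kidney at 72 h, with sums of 5.12 to 7.34 and 3.42 to 5.45, against 6.09 to 9.38 and 5.92 to 11.1 after saline. At least 5 of the 6 fibroblast and all 5 smooth muscle markers were well above background on all arrays of each group.

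Podocytes make the Col4a3, Col4a4 and Col4a5 trimer of the glomerular membrane. The counts below stand against the same shares, 22.5% and 17.6% of all genes lower at 24 h and 17.5% and 12.8% at 72 h. The podocyte and macrophage counts at 24 h are near them and are no result. Of 6 podocyte markers 1 was lower at 24 h in each genotype and none higher, and the sum over the list was 9.88 to 17 in miR-155-/- and 7.26 to 12.4 in wild type kidney at 24 h, against 13.8 to 18.5 and 10 to 16.1 after saline. Of 6 tubule markers 5 were lower in miR-155-/- and 6 in wild type kidney at 24 h, with sums of 93.9 to 126 and 67.2 to 109, against 231 to 366 and 306 to 337 after saline. Of 7 endothelial markers 5 were lower in miR-155-/- and 1 in wild type kidney at 24 h, with sums of 5.12 to 9.05 and 5.99 to 9.17, against 10.2 to 13.6 and 8.29 to 11.6 after saline. Of 5 macrophage markers 1 was lower in each genotype at 24 h, and 1 in miR-155-/- and 3 in wild type kidney at 72 h, with 72 h sums of 5.92 to 7.23 and 5.83 to 7.77, against 9.53 to 14.5 and 11.1 to 13.3 after saline. Of 4 tested adipocyte markers 1, Cidec, was higher in all 6 comparisons, and Lep was above background on no array.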

How the data were processed

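Kidney RNA of 32 mice was measured on 1-colour Agilent arrays, 1 per animal. Per the file headers, the intensity is the background-subtracted processed signal of Feature Extraction 10.7.3.1, as deposited. The authors' deposited table holds the same intensity with each array's 75th percentile near 1000, and served as an alternative. Here the processed signal was put on log2 and each array's 75th percentile subtracted, spots flagged as outliers were left out, and the brightest probe stood for a gene. Symbols came through transcript accessions from a RefSeq table (GRCm38.p6), which named 27234 of 39429 probes. Promoter sequences are RefSeq's of the same build, and 35 collagen genes had one.

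Limma 3.58.1 in R 4.3.3 fitted 8 group means over 23743 genes and transcripts (lmFit, contrasts.fit, eBayes with trend), with 15 two-sided comparisons, each adjusted by Benjamini-Hochberg, and a call at an adjusted p under 0.05. Every ± after a log2 difference is a standard error from that fit with 4 animals per group, and the fit was tested on simulated data. A level needed at least 3 values in every group. All fibrillar and type IV chains tested are described, and other collagens where called with at least a 2-fold change. Genes outside the collagens come from lists, those with the smallest adjusted p first. The members and lists were chosen with earlier results of these data known. Replicate numbers did not pair the animals: in 0 of 12 comparisons did all same-numbered arrays deviate together (correlation above 0.1 in each pair). Normexp used median signals with an offset of 50. Other alternatives were quantile normalization, other probe filters, the slide, scan day or replicate as a block, array weights and leaving out arrays. The values of some genes of these lists are not reported here.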

Additional observations from a re-analysis of the deposited data

Results flagged for a closer look

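Within single groups of 4 arrays, 1 array lay far from its 3 mates for 20 of 279 collagen gene and group combinations tested (7.17%), where chance alone gives about 1 in 20. miR-155-/- replicate 3 at 48 h accounted for 8 of them. It was far below its mates in Col4a3 (-2.31), Col4a4 (-0.994), Col4a5 (-2.99), Col5a3 (-4.63), Col14a1 (-2.49), Col16a1 (-1.33) and Col18a1 (3.31) and far above them in Col17a1 (-2.80). miR-155-/- replicate 3 at 24 h stood far above its mates in Col23a1 (-4.14) and Col6a6 (-6.35) and far below them in Col26a1 (-4.78).

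Among the miR-155-/- arrays at 72 h, replicate 3 was far above its mates in Col5a1 (-1.89) and Col6a3 (-1.01), replicate 4 far above in Col23a1 (-4.88), and replicate 1 far below in Col27a1 (0.798). In wild type kidney at 72 h the arrays apart were replicate 4 in Col11a2 (-3.03) and Col9a2 (-4.32), replicate 3 in Col16a1 (1.43) and replicate 2 in Col4a6 (-3.33), and at 48 h replicate 3 in Col15a1 (-6.88). The cause was not tested for any of them.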

How the results depend on the processing

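Of 124 collagen calls, normexp background correction ended 51 and turned the sign of 11, while quantile normalization ended 2 and the authors' deposited table none. The reversed normexp values were 0.647 (48 h) and 0.462 (72 h) in miR-155-/- and 0.289 (24 h) in wild type kidney for Col19a1, 0.360, 0.0957 and 0.214 in the same comparisons for Col24a1, 0.372 and 0.146 at 48 and 72 h in miR-155-/- kidney for Col8a2, 0.0176 at 48 h in miR-155-/- and 0.104 at 24 h in wild type kidney for Col6a6, and -0.142 for Col17a1 between 72 and 24 h in wild type kidney. Within 1 slide Col18a1 gave -0.0358 at 48 h in miR-155-/- kidney. The count of called collagens under normexp was 12, 5 and 7 at 24, 48 and 72 h in miR-155-/- and 11, 3 and 10 in wild type kidney.

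The 9 calls at 48 h in wild type kidney became 17 with the slide as a fixed block, 16 as a random block, 22 with array weights and 14 without miR-155-/- replicates 3 at 24 and 48 h (chosen after seeing the data). The 16 at 48 h in miR-155-/- kidney became 10 when only both compared groups were fitted. With array weights 8 collagens were called between genotypes at 72 h and 6 for the response. Leaving out 1 array kept the call in 837 of 992 refits and turned no sign. Calls against saline lost this way and not described with their gene were those of Col5a3 and Col18a1 (24 h), Col7a1, Col8a2 and Col18a1 (48 h) and Col6a3, Col8a1 and Col19a1 (72 h) in miR-155-/- kidney, and of Col4a1, Col5a3, Col6a3, Col24a1 and Col27a1 (24 h), Col8a1, Col18a1 and Col27a1 (48 h) and Col5a1, Col7a1, Col8a2, Col14a1 and Col24a1 (72 h) in wild type kidney, with adjusted p up to 0.235 in limma. It gave 5 to 9 calls at 48 h in wild type kidney (5 without its replicate 2), 9 to 14 between 72 and 24 h in miR-155-/- kidney (9 without 24 h replicate 4) and 0 to 2 between genotypes at 72 h. With the replicate block 123 of 124 calls were kept, so that the block changed 1 call.

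The class gap at 24, 48 and 72 h was -0.813, -0.659 and -1.12 in miR-155-/- and -0.684, -0.854 and -1.57 in wild type kidney with 5 fibrillar and 2 type IV chains. The wild type gap at 72 h was -0.679 as a median over chains and between -0.490 and -0.308 without single arrays. On a single slide each, the gap was 0.938 at 48 h and 0.430 at 72 h in miR-155-/- and -0.600 at 48 h in wild type kidney. These are only the slides where it moved from its mean by at least the SD of the treated arrays. The gaps on the other slides are not given here. At 72 h in miR-155-/- kidney the slides differed, with Col1a1 and Col3a1 at 0.98 and 0.53 on this slide and -1.26 and -1.82 on the other. Causes were not tested. Signals near background limit Col2a1, Col5a2, Col6a6, Col8a2, Col13a1, Col15a1, Col17a1, Col19a1, Col23a1 and Col24a1.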
